A study of Mus musculus with 8 samples.

Results

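The vitamin A (retinoid) genes examined here were Rbp4, Stra6, Aldh1a1, Aldh1a2, Crabp2, Rarb and Cyp26b1, 7 of the 32285 genes in the feature list, each found there once under its symbol. They were chosen with values of these data in view. The set was chosen by the level of Cyp26b1 in the sham and TAC-2w sections, and the contrast of tissue-edge with interior spots and the source cell types were named with it, so all of these values are given as a description.

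Hearts of male wild-type C57BL/6J mice, operated on at 8 weeks of age, were studied after a sham operation or at 2, 4 or 6 weeks after transverse aortic constriction (TAC), a narrowing of the aortic arch that loads the left ventricle with pressure. The groups, listed here and below in time order, were sham and, by weeks after TAC, TAC-2w, TAC-4w and TAC-6w. No group carried a transgene, a deletion or a drug. Each group had 1 Visium section, in which RNA was counted in an array of tissue spots that can each hold several cells, and 1 single-cell library of a heart. There were thus no replicates, no test between conditions was possible, and every interval printed is a 95% interval for counting error alone. For the libraries, the methods describe dissociated cells and the labels nuclei.

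Levels are given as CPM, the unique molecular identifiers (UMIs, counted RNA molecules) of a gene per 1000000 UMIs of the section, library or cell cluster. The sections held 1228 to 2193 spots and 25996378 to 48754396 UMIs, and the libraries 5854 to 10275 cell barcodes and 28793316 to 86671674 UMIs. The sham section was the shallowest, with a median of 15488.5 UMIs per spot against 20203 to 27593 in the TAC sections, and had the highest mitochondrial share, 51.5% against 42.2% to 44.2%. By the labels, the sham and TAC-2w sections shared a batch and so did the sham and TAC-6w libraries, so the other differences from sham cannot be told apart from batch. The TAC-4w library stood apart in its cells, with 89 and 302 cells in fibroblast-like clusters 0 and 1 against 2085 and 2232 in sham, and 2427 B-like cells against 232. The cardiomyocyte markers Myh6, Tnnt2, Actc1, Myl2, Ryr2 and Tnni3 together stood at 25047 to 34187 CPM in the sections, as a heart section should show. Pairs of libraries shared between 8 and 19 cell barcodes.

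Retinol travels in the blood bound to the carrier that Rbp4 encodes and can enter cells through the receptor Stra6. Inside the cell it is oxidised to retinal and then, by the aldehyde dehydrogenases Aldh1a1 and Aldh1a2, to retinoic acid, which Crabp2 carries to nuclear receptors such as Rarb, while Cyp26b1 hydroxylates retinoic acid and so starts its removal. In the heart, retinoic acid is best known from development, when the epicardium (the mesothelial outer layer) is a main site of Aldh1a2.

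The promoter of Rarb is shown because it holds the classical retinoic acid response element, a direct repeat of 2 hexamers to which retinoic acid receptors bind. RefSeq promoter windows, from 250 bases before to 50 after a start site on GRCm38.p6, matched 6 of the 7 genes with 11 windows, and none was matched for Crabp2. Direct repeats of the hexamer AGGTCA, or of its variants AGTTCA and GGGTCA and likewise GGTTCA, with a spacer of 1, 2 or 5 bases were searched on both strands, counting any overlap. Of the 11 windows, 1 held such a repeat, that of Rarb, with a spacer of 5. In all 32817 promoter windows, 0.0975% held a repeat with this spacer and 0.588% one with any of the 3 spacers. Both hexamers of the Rarb repeat, GGTTCA and AGTTCA, were among those searched for, so nothing is read from its presence. This stretch of the Rarb promoter lies at chr14:16575503-16575539 on the minus strand, the repeat runs from 53 to 37 bases before the start site, and capitals mark the hexamers.
Rarb: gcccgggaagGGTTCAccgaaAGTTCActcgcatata

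In the sections, Cyp26b1 was lower in every TAC section than in sham, and lowest at TAC-6w, while Aldh1a1 and Aldh1a2 had their highest levels at TAC-6w. Of the 7 genes, Aldh1a1, Aldh1a2, Rarb and Cyp26b1 had the 50 UMIs in either section that were asked for before a fold was counted. At TAC-2w 1 of these 4 was at least 2-fold lower than sham, against 0.587% of all genes with enough UMIs. At TAC-4w 2 of 4 were, against 0.776%, and at TAC-6w 1 of 4, against 0.251%. No member was at least 2-fold higher, against 0.657%, 5.28% and 4.66% of all genes at the 3 times. Since the level of Cyp26b1 chose the set, nothing is read from these counts.

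**Figure D1:**
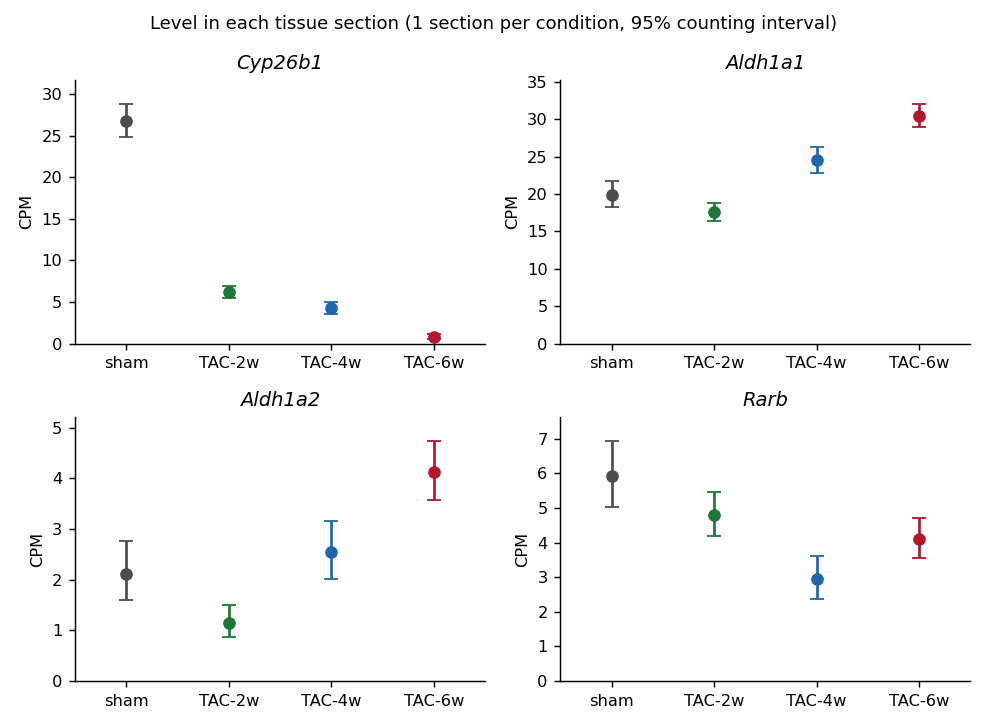
Level of Cyp26b1, Aldh1a1, Aldh1a2 and Rarb, in CPM (vertical axis, from 0), in the 4 sections in time order (horizontal axis), with 1 point per section and bars for the 95% counting interval. Cyp26b1 steps down from 26.8 to 0.808, Aldh1a1 and Aldh1a2 end highest at 30.5 and 4.12, and Rarb is lowest at TAC-4w, at 2.94.

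Of the transport and uptake genes, Rbp4, at chr19:38116620-38125321, gave 9, 17, 20 and 8 UMIs in the 4 sections in time order. Stra6, at chr9:58063793-58154004 and overlapping Ccdc33, gave 2, 2, 3 and 6 UMIs. These counts are too low to compare conditions. Crabp2, the retinoic acid carrier at chr3:87948693-87953372, gave no UMI in the sham, TAC-2w and TAC-4w sections, which allows levels of up to 0.115, 0.0615 and 0.0939 CPM (3 UMIs of the total), and 1 UMI at TAC-6w.

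Aldh1a1, at chr19:20492583-20643463, overlaps E030003E18Rik, C730002L08Rik and Gm6684, and its level was 19.9 CPM in sham and 17.6, 24.5 and 30.5 CPM at the TAC times. The intervals of sham and TAC-2w meet, and those of TAC-4w and TAC-6w lie above both. The ratio to sham was 0.883 [0.791 to 0.987] at TAC-2w, 1.23 [1.1 to 1.38] at TAC-4w and 1.53 [1.38 to 1.70] at TAC-6w. The median ratio of all genes was itself 1.03, 1.16 and 1.24 at these times, a shift of 0.05, 0.22 and 0.30 on the log2 scale, and relative to that median Aldh1a1 was at 0.856, 1.06 and 1.24.

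Aldh1a2, at chr9:71215789-71296243, stood at 2.12 CPM in sham and then at 1.15, 2.54 and 4.12 CPM, from 55, 56, 81 and 199 UMIs. TAC-2w was the lowest and TAC-6w the highest, with no overlap of their intervals, while sham and TAC-4w did not differ beyond theirs. The ratio to sham was 0.543 [0.367 to 0.802], 1.2 [0.841 to 1.72] and 1.95 [1.44 to 2.68], or 0.526, 1.03 and 1.58 relative to the median of all genes. Without mitochondrial and ribosomal-RNA-like features the TAC-2w ratio was 0.465, and the mean of the per-spot levels gave 2.55 at TAC-6w, each past 2-fold.

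Rarb, a receptor that retinoic acid itself induces, lies at chr14:16430839-17082331 and overlaps Gm46442, Gm19061, Tpi-rs9 and Gm18078. Its level was 5.92 CPM in sham, and 4.80, 2.94 and 4.10 CPM followed in the TAC sections. Neighbours in this order, sham and TAC-2w, TAC-2w and TAC-6w, and TAC-6w and TAC-4w, overlap in their intervals, and sham and TAC-4w do not. The TAC-4w ratio to sham, 0.497 [0.380 to 0.646], is just inside the 2-fold limit and was 0.509 for the mean of the per-spot levels. At TAC-2w and TAC-6w the ratios were 0.810 [0.658 to 1.00] and 0.692 [0.558 to 0.860]. Relative to the median of all genes, the Rarb ratios were 0.785, 0.428 and 0.560 in time order. Without mitochondrial and ribosomal-RNA-like features they were 0.693, 0.416 and 0.600.

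Cyp26b1, at chr6:84571414-84593908, gave 696 UMIs in sham and 301, 135 and 39 in the TAC sections, or 26.8, 6.17, 4.23 and 0.808 CPM. A UMI was seen in 28.5% of the sham spots and in 12.4%, 9.45% and 1.78% of those of the TAC sections. The 4 intervals do not overlap between any sections, and sham was 4.34, 6.33 and 33.1 times the TAC sections in time order, the first of these within 1 batch. By its ratio, Cyp26b1 was the gene ranked 9 from the lowest of 11423 at TAC-2w, 6 of 11205 at TAC-4w and 2 of 11952 at TAC-6w. Since its section level chose the set, nothing is read from these ranks. In a section, fewer cells that express a gene and less RNA per cell cannot be told apart.

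**Figure D2:**
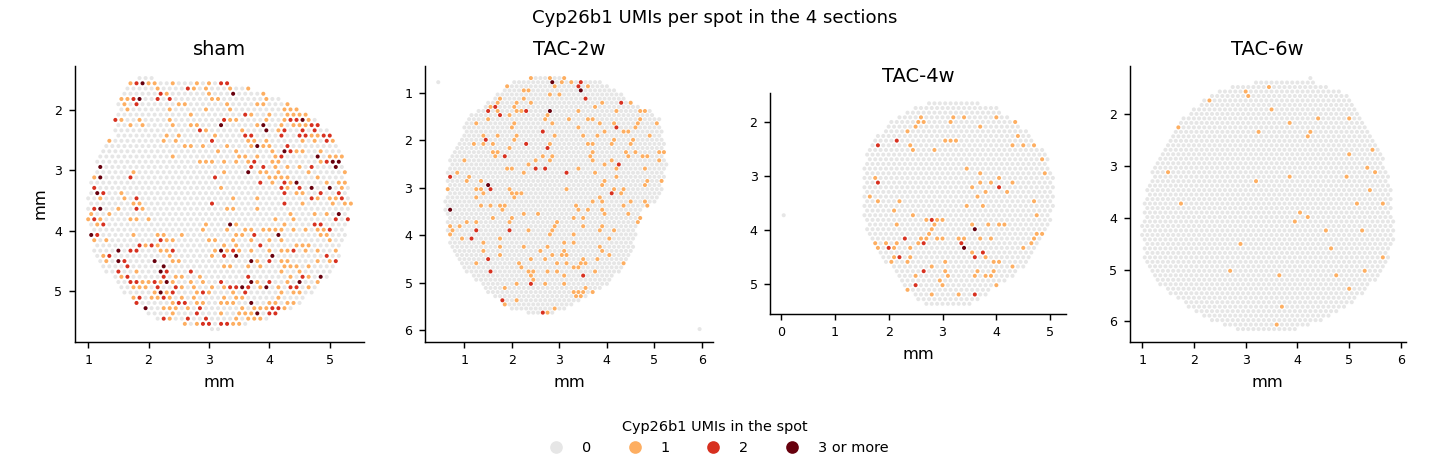
Spots of the 4 sections at their positions (both axes in mm), coloured by the number of Cyp26b1 UMIs in the spot, from 0 in grey to 3 or more in dark red. Coloured spots are spread over the sham section and thin out through TAC-2w and TAC-4w to 39 spots at TAC-6w, none with more than 1 UMI.

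The differences in Cyp26b1 were similar in shallow and deep spots. In sham it stood between 25.0 and 29.0 CPM in spots of 500 to 10000, 10000 to 20000, 20000 to 30000 and at least 30000 UMIs. The same 4 ranges were 5.56 to 6.43 at TAC-2w, 3.52 to 4.86 at TAC-4w and 0.349 to 0.986 at TAC-6w, so every TAC range lay below the sham range.

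Of 6 endothelial markers (Pecam1, Cdh5, Kdr, Fabp4, Egfl7 and Emcn, none of them at 0 in any section), 5, 4 and 0 were lower than sham at the 3 times. Their summed level was 1222 CPM in sham and 1168, 1608 and 2126 CPM with TAC, but Fabp4, a fatty acid carrier, made up most of it, at 885, 913, 1325 and 1645 CPM. The junction gene Cdh5 was at 89.2, 64.1, 60.3 and 132 CPM, and Pecam1 at 73.5, 54.3, 78.3 and 101 CPM. Aqp1, a water channel of capillaries that is outside the list and was named after its values were seen, was at 287, 233, 115 and 220 CPM. The capillary genes Car4 and Gpihbp1, likewise outside the list, did not follow it. They were at 24.4, 33.7, 39.3 and 30.6 CPM and at 163, 148, 177 and 211 CPM. The part of endothelial cells in the Cyp26b1 levels of the sections was not tested. In the 10% of spots richest in the 6 endothelial markers, Cyp26b1 was 1.24, 1.13, 1.05 and 1.82 times its level in the other spots of the 4 sections, and all 4 intervals include 1.

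The contrast of edge with interior spots asks whether the genes mark the outer rim, where the epicardium lies. Edge spots, those with fewer than 6 neighbours over tissue, numbered 150, 170, 126 and 168 in time order. Aldh1a1 and Aldh1a2 were higher at the edge at TAC-4w and TAC-6w, whereas Cyp26b1 showed no edge difference in sham or TAC-2w. Of the 3 genes with enough UMIs in sham, 1 was at least 2-fold lower at the edge (Rarb), against 2.88% of all genes, and 0 at least 2-fold higher, against 0.177%. Of 4 genes at TAC-4w, 1 was at least 2-fold higher (Aldh1a2), against 0.852%, and 0 lower, against 1.69%. At TAC-2w and TAC-6w, with 4 and 3 genes, the count was 0, against 0.32% and 1.27% of all genes higher and 2.44% and 1.35% lower.

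Aldh1a1 stood at 21.9 CPM at the edge and 19.6 inside in sham, 23.1 and 17 at TAC-2w, 40.9 and 22.6 at TAC-4w, and 49.2 and 28.5 at TAC-6w. The edge was thus higher in all 4 sections, and in sham by less than its counting error. The ratios were 1.12 [0.868 to 1.43], 1.35 [1.09 to 1.67], 1.81 [1.5 to 2.18] and 1.73 [1.49 to 1.99]. In spots of 10000 to 30000 UMIs alone the last 2 were 2.29 and 2.21. In the next ring of spots inwards Aldh1a1 was at 19.5 at TAC-4w and 28.4 at TAC-6w, close to the interior level, and in the third ring at 21.6 and at 37.7 [32.2 to 43.9], so at TAC-6w the level did not fall steadily inwards.

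For Aldh1a2 the edge and interior levels were 1.97 and 2.14 CPM in sham, 1.12 and 1.15 at TAC-2w, 6.14 and 2.10 at TAC-4w, and 7.48 and 3.76 at TAC-6w. Edge and interior were alike within counting error in sham and TAC-2w, where the edge held only 7 and 5 UMIs, and the edge was higher at TAC-4w and TAC-6w, with 21 and 35 UMIs. The TAC-4w ratio was 2.92 [1.69 to 4.87], and that of TAC-6w, 1.99 [1.34 to 2.88], lies just outside the 2-fold limit.

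Rarb was lower at the edge in sham, at 2.53 against 6.46 CPM, from 9 edge UMIs, a ratio of 0.392 [0.176 to 0.764]. Its ratios were 1.35, 0.883 and 0.655 in the TAC sections, all with intervals that include 1. Cyp26b1 had edge and interior levels of 25.6 and 27.0 in sham and of 6.95 and 6.1 at TAC-2w, with ratios of 0.949 [0.753 to 1.18] and 1.14 [0.759 to 1.66]. At TAC-4w it was 2.34 against 4.45, a ratio of 0.525 [0.222 to 1.07], and at TAC-6w the edge held 2 UMIs.

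**Figure D3:**
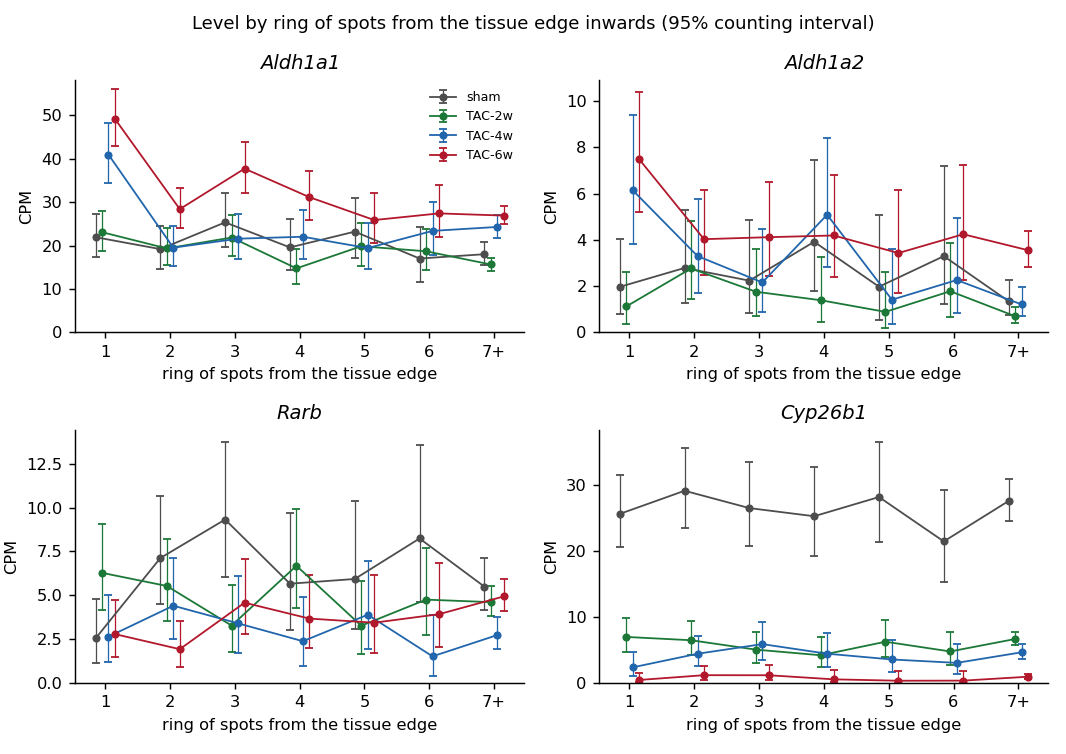
Level of Aldh1a1, Aldh1a2, Rarb and Cyp26b1 in CPM (vertical axes) by ring of spots from the tissue edge, ring 1, to ring 7 and deeper (horizontal axes), with a line per section and bars for the 95% counting interval. Aldh1a1 is raised in ring 1 of TAC-4w and TAC-6w, at 40.9 and 49.2, is at 19.5 and 28.4 in ring 2 and at TAC-6w again higher, at 37.7, in ring 3, whereas Cyp26b1 in sham is level across the rings.

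Markers of the mesothelium were higher at the edge in sum, and 5 of the 6 were so in all 4 sections. Wt1, at 3.37 CPM at the edge and 4.14 inside in sham and at 5.13 and 5.11 at TAC-6w, was not. The summed level of Upk3b, Msln, Wt1, Lrrn4, Upk1b and Krt19, none at 0 in any section, was 28.7 CPM at the edge and 6.15 inside in sham, 18.6 and 3.52 at TAC-2w, 103 and 8.2 at TAC-4w, and 80.4 and 10.5 at TAC-6w. In the 10% of spots richest in these markers, Aldh1a2 was 3.00 [1.70 to 5.09] times its level elsewhere at TAC-4w and 1.80 [1.16 to 2.72] times at TAC-6w, and Aldh1a1 was 1.63 and 1.58 times. These spots are not a set independent of the edge spots, as 5 of the 6 markers were higher at the edge. Fibroblast markers were not higher at the edge in sham, TAC-2w and TAC-4w, where their ratios were 0.618, 0.903 and 0.892, and at TAC-6w the ratio was 1.05. In the 10% of spots richest in fibroblast markers, Aldh1a1 was 1.34, 1.79, 1.58 and 1.78 times its level elsewhere in the 4 sections, and these 4 intervals lie above 1. What part either cell type had in the edge levels was not tested.

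The libraries show the levels of these genes in the kinds of cell that they captured. Cardiomyocyte-like cells numbered only 107, 74, 23 and 10 in the 4 libraries, at a median depth of 2186 UMIs. The part of such cells in the section levels was not tested. Cells were clustered without the retinoid genes, and clusters were named from marker lists or, where the lists gave no name, by their leading genes. At the main resolution of 0.25, most UMIs of Rbp4, Crabp2 and Aldh1a2 lay in clusters named fibroblast-like. Aldh1a1 was highest in a small cluster led by Wif1, Chad and Coch, and Cyp26b1 had its highest level in endothelial-like cells. Only clusters of at least 50 cells in a library are given a level. The mesothelial list named no cluster, so these libraries give no level for the epicardium.

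**Figure D4:**
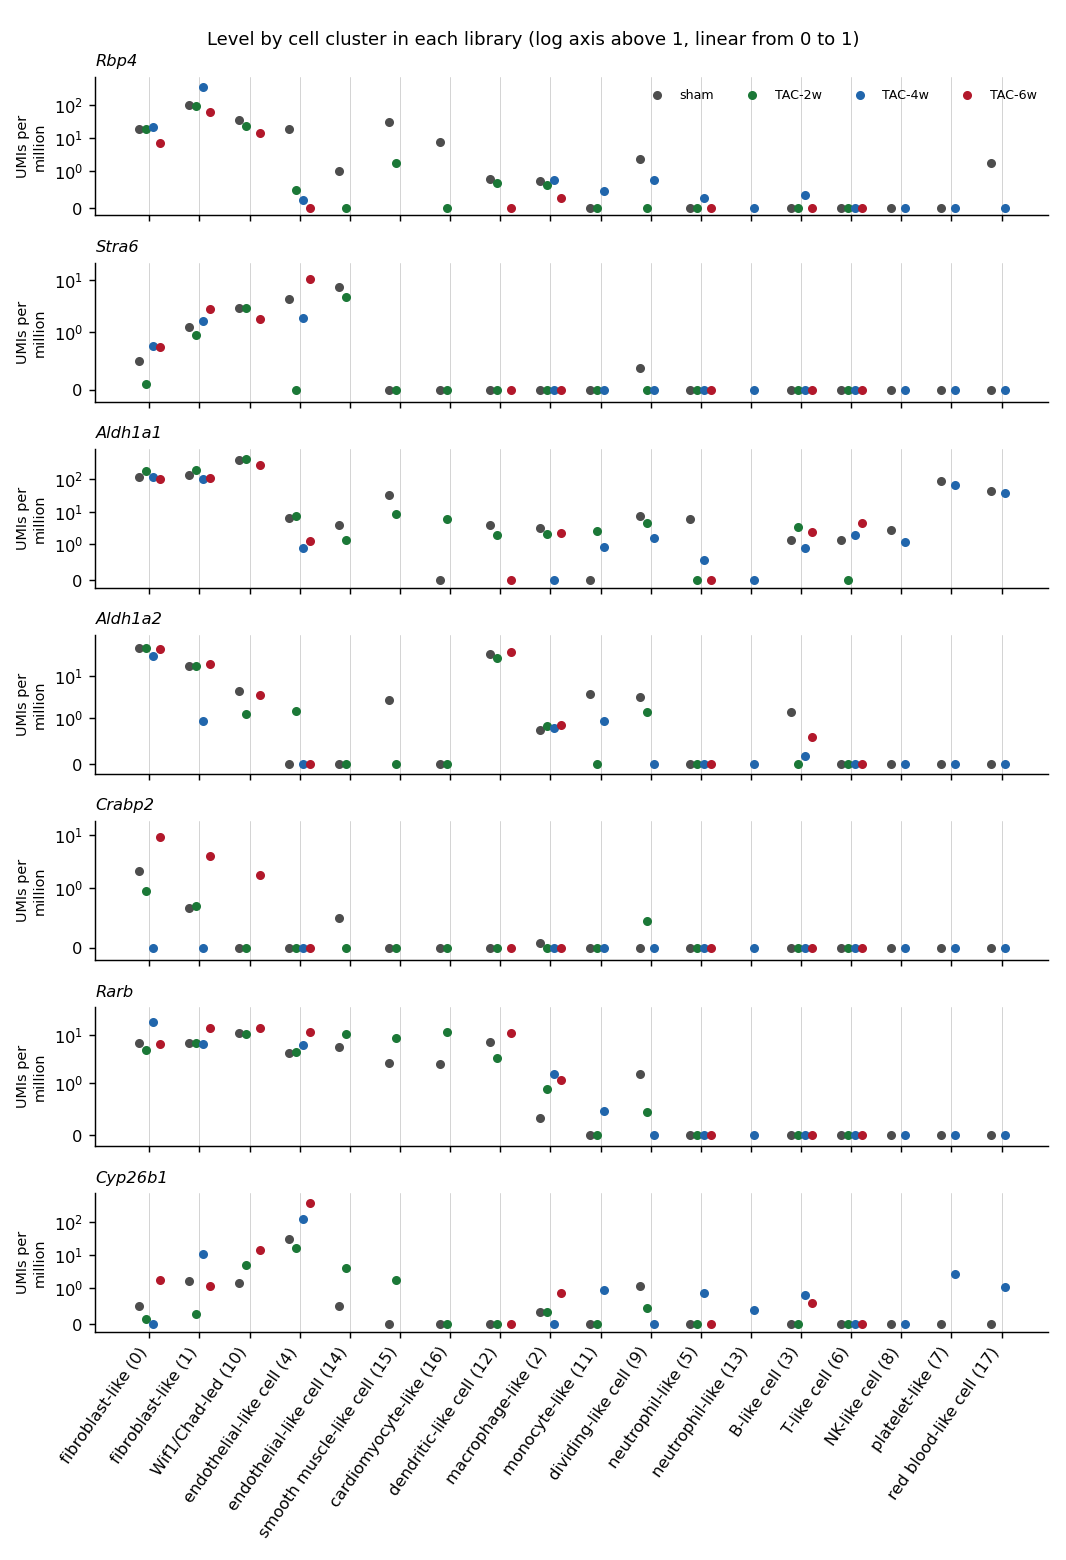
Level of each gene in CPM (vertical axes, logarithmic above 1 and linear from 0 to 1) in each cell cluster of at least 50 cells (horizontal axis, with the cluster number), with 1 point per library. Rbp4, Aldh1a1, Aldh1a2 and Crabp2 are highest on the left, in fibroblast-like clusters 0 and 1 and cluster 10, and Cyp26b1 in endothelial-like cluster 4, where it reaches 369.

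Rbp4 was highest in fibroblast-like cluster 1, which was led by Gdf10 and Aox3 and held 66.4% to 96.5% of its UMIs. There its level was 98.4 CPM in sham and 90.1, 333 and 60.6 CPM in the TAC libraries. Next came cluster 10, at 35.1, 22.4 and 14.1 in sham, TAC-2w and TAC-6w, and fibroblast-like cluster 0, at 19.0, 18.1, 21.8 and 6.81. Smooth muscle-like cells were at 30.2 in sham, from 34 UMIs in 8 cells, and at 1.76 at TAC-2w. The intervals of clusters 10 and 0 overlap at TAC-2w and TAC-6w. A Rbp4 UMI was seen in 27.8%, 28.5%, 57.3% and 16.3% of the cluster 1 cells, at median depths of 9995, 11959, 13477 and 5353.5 UMIs. In lymphoid cells and neutrophils, which should lack it, the share was 0 of 680, 0 of 368 and 0 of 1226 cells in sham, TAC-2w and TAC-6w, which allows up to 0.441%, 0.815% and 0.245% (3 cells of the total), and 0.114% at TAC-4w, at median depths of 1863.5 to 4268 UMIs.

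At the finer resolution of 0.5, much of the Rbp4 fell into a cluster of 132 to 253 cells per library led by Gdf10 and Tnfrsf11b, where its level was 503 CPM in sham and 409, 420 and 53.9 CPM in the TAC libraries. The marker lists gave this cluster no name, with pericyte markers at a mean log2 fold of 1.29 and fibroblast markers at 1.12. Within it, TAC-4w did not stand above sham, and TAC-6w was the lowest. The TAC-6w ratio to sham was 0.107 [0.0718 to 0.154] within the shared batch. It rests on 30 UMIs in 12 of 132 cells, with 73.3% of the UMIs in the top 5 cells. The median depth was 1966 UMIs there against 4738 in sham. Of all genes with enough UMIs, 11.8% were at least 2-fold lower in this comparison and 4.35% higher. In cluster 1 as a whole TAC-4w was 3.39 [3.16 to 3.62] times sham. At TAC-4w the Gdf10-led cluster held 221 cells and cluster 1 held 302, against 253 and 2232 in sham, and the part of this in the ratio was not tested.

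Stra6 gave only 67, 35, 16 and 30 UMIs in the kept cells of the 4 libraries in time order. It was highest in endothelial-like cluster 14, led by H19 and the endocardial marker Npr3, at 7.10 CPM in sham and 4.65 at TAC-2w, the libraries with enough of these cells. In endothelial-like cluster 4 the levels were 4.33, 0, 1.81 and 10.3, the 0 allowing up to 1.47. The 10.3 rests on 8 UMIs in 3 cells, with 6 of these UMIs in 1 cell. The intervals of clusters 14 and 4 overlap in sham, where they held 14 and 6 of the 67 UMIs. Most UMIs in sham, TAC-2w and TAC-6w lay in fibroblast-like clusters 1 and 0, at lower levels in sham and TAC-6w. These 2 clusters held 28 and 12 UMIs in sham, then 19 and 2, 7 and 1, and 10 and 11 in the TAC libraries.

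Aldh1a1 was highest in cluster 10, led by Wif1, Chad and Coch, at 392 CPM in sham, 423 at TAC-2w and 274 at TAC-6w. There 87.0%, 97.5% and 70.8% of the cells held a UMI, at median depths of 11531, 14591.5 and 7917 UMIs, against 1.18%, 0.543% and 0.408% of lymphoid cells and neutrophils. Fibroblast-like cluster 1 followed, at 132, 193, 105 and 108 CPM in the 4 libraries, with cluster 0 at 120, 183, 122 and 106. The intervals of clusters 1 and 0 overlap in the TAC libraries but not in sham. Platelet-like cells also held Aldh1a1, at 87.6 in sham from 5 UMIs and 68.4 at TAC-4w from 51, as did red blood-like cells, at 42.5 and 37.9.

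Aldh1a2 was highest in fibroblast-like cluster 0, led by Stmn4, Pla1a and Ret, at 45.6 CPM in sham and 46.5, 30.1 and 44.4 CPM after TAC, and that cluster held 65.6% to 87.0% of its UMIs. Dendritic-like cluster 12, although it held few cells, was close behind, at 32.6, 26.0 and 37.9 in sham, TAC-2w and TAC-6w, and its interval overlaps that of cluster 0 in sham and TAC-6w. A UMI was seen in 18.1%, 13.3% and 19.4% of the dendritic-like cells, at median depths of 12126, 13300 and 7135 UMIs, against 0.294%, 0 of 368 (allowing 0.815%) and 0.0816% of lymphoid cells and neutrophils. Macrophage-like cells stayed between 0.738 and 0.848. Dendritic cells that make retinoic acid are known from the gut.

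Crabp2 came from fibroblast-like clusters 0 and 1, which held 50 and 15 of its 67 UMIs in sham, 18 and 14 of 33 at TAC-2w and 131 and 14 of 146 at TAC-6w. In cluster 0 its level was 2.07 CPM in sham, then 0.954, 0 and 8.83 CPM. The 0 at TAC-4w comes from 89 cells and allows up to 2.26, and although the ratio to sham, 0 [0 to 1.39], counts as past 2-fold, a difference was not detectable at this depth. Over clusters 0 and 1 together the ratio was 0 [0 to 0.487], below sham, but 302 of these TAC-4w cells were of cluster 1, where Crabp2 was at 0.669 CPM in sham as well. Few cells carried these UMIs, 1.1%, 0.857% and 1.49% of the cluster in sham, TAC-2w and TAC-6w. At resolution 0.5 Crabp2 was among the leading genes of a cluster with Thbs4, Cst6 and Postn, at 10.9, 4.17 and 15.5 there.

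Rarb was spread over several cell types. Its level was 11.1, 10.8 and 14.1 CPM in cluster 10 in sham, TAC-2w and TAC-6w. It was 6.83, 4.98, 19.6 and 6.54 in cluster 0, and 6.96, 6.95, 6.57 and 14.2 in cluster 1, in time order. Endothelial-like cluster 4 held 4.33, 4.42, 6.12 and 11.6, and dendritic-like cells 7.15, 3.33 and 11.1. Cardiomyocyte-like cells were at 2.48 in sham, from 1 UMI, and at 11.8 at TAC-2w, from 4 UMIs in 3 cells. Smooth muscle-like cells at resolution 0.5 were at 2.62 in sham and 8.66 at TAC-2w, from 3 and 10 UMIs. In sham the intervals of all these clusters overlap with those of their neighbours in the order.

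Cyp26b1 was highest in endothelial-like cluster 4, led by Stmn2, Cldn5 and Gpihbp1, in all 4 libraries. It gave 41, 32, 529 and 286 UMIs in 339, 470, 476 and 185 cells, in time order, or 29.6, 15.7, 120 and 369 CPM. TAC-4w and TAC-6w were above sham here and below it in the sections, the intervals of sham and TAC-2w overlap, and that of TAC-6w, the highest, overlaps no other. The cluster held 41.0%, 47.8%, 89.1% and 86.9% of all Cyp26b1 UMIs of the kept cells, in the same order of libraries. In sham fibroblast-like clusters 1 and 0 held another 36 and 12 of the 100 UMIs. Cluster 4 thus held most of the Cyp26b1 at TAC-4w and TAC-6w, but not in sham or at TAC-2w. Cluster 14, also endothelial-like, is not counted in these shares.

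The share of cluster 4 cells with a Cyp26b1 UMI was 7.37%, 3.62%, 29.8% and 31.9%, at median depths of 2228, 2247, 7015 and 3513 UMIs. After thinning each cell to 1000 UMIs, which left out 87, 115, 13 and 13 cells, it was 2.78%, 0.563%, 10.2% and 18%. In lymphoid cells and neutrophils a UMI was seen in 0 of 680 cells in sham and 0 of 368 at TAC-2w, and then in 0.296% and 0.0816%, the first 2 allowing shares of up to 0.441% and 0.815%. Few cells carried the sham and TAC-2w counts, with 39.0% and 62.5% of the UMIs in the top 5 cells, against 16.8% and 27.6% at TAC-4w and TAC-6w.

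At resolution 0.5, a cluster led by Aqp1, Car4 and Gpihbp1, genes known from capillary endothelium, held the highest level of Cyp26b1, at 40.8, 19.6, 195 and 570 CPM. Endothelial-like cluster 14, led by H19 and Npr3, was at 0.507 in sham and 3.99 at TAC-2w. Fibroblast-like cluster 1 was at 1.61, 0.298, 10.8 and 1.12, the third of these from 46 UMIs. At TAC-4w the finer Gdf10-led cluster held 221 cells and cluster 1 held 302, against 253 and 2232 in sham. In the Gdf10-led cluster Cyp26b1 was at 10.8 CPM [6.40 to 17.1] in sham and 13.1 [9.47 to 17.8] at TAC-4w, and these intervals overlap. The part of the shift to Gdf10-led cells in the TAC-4w level of cluster 1 was not tested.

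Within clusters, the libraries were then set against sham. In cluster 4, Cyp26b1 was 4.05 [2.95 to 5.71] times sham at TAC-4w and 12.5 [8.97 to 17.8] times at TAC-6w, the latter within the shared batch. For clusters 4 and 14 together the ratios were 9.54 [6.96 to 13.4] and 26.3 [18.9 to 37.2], with cluster 14 mostly in sham and TAC-2w. Over these 2 clusters, 6.99% and 3.49% of all genes were at least 2-fold higher, and 7.56% and 10.9% at least 2-fold lower. Of all genes with enough UMIs in cluster 4 alone, 1.93% and 1.88% were at least 2-fold higher at these times, and 1.94% and 6.33% at least 2-fold lower. At TAC-2w the gene had too few UMIs to be counted, and 0.825% of all genes were higher and 0.917% lower. The capillary genes Gpihbp1 and Car4 differed less, at 1209, 1919, 1120 and 1525 CPM and at 151, 207, 123 and 133, and Pecam1 was at 1258, 990, 1271 and 1200, in time order. Kdr was lowest at TAC-6w, at 865, 1042, 715 and 466, and Aqp1 highest there, at 1370, 1445, 1323 and 1885.

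**Figure D5:**
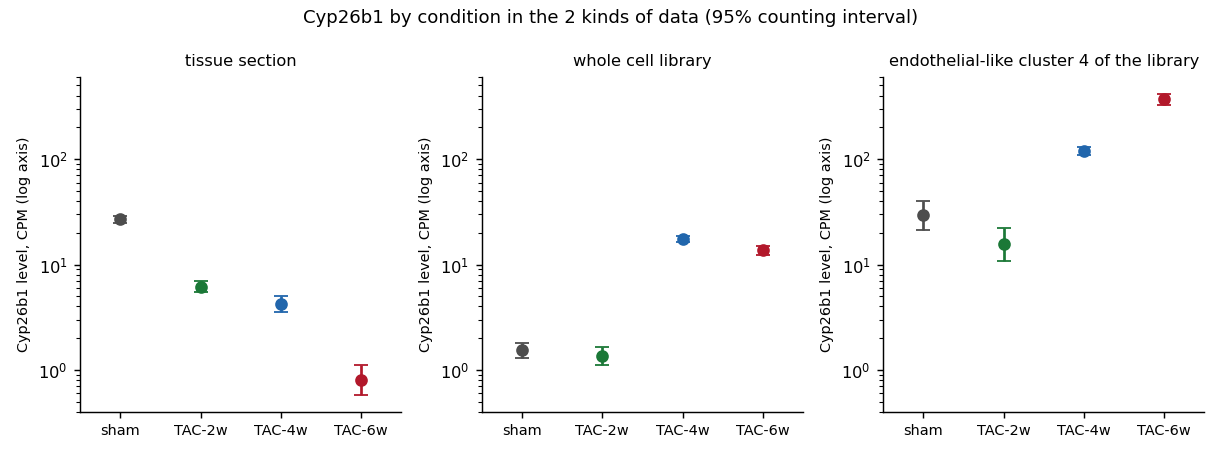
Cyp26b1 in CPM (vertical axes, logarithmic, the same in the 3 panels) in the tissue sections, the whole cell libraries and endothelial-like cluster 4 of the libraries, by condition (horizontal axes), with bars for the 95% counting interval. The sections step down from 26.8 to 0.808, whereas the libraries are low at sham and TAC-2w, at 1.53 and 1.35, and high at TAC-4w and TAC-6w, at 17.4 and 13.6.

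In fibroblast-like cluster 1, 1 of the members was at least 2-fold higher at TAC-4w (Rbp4), against 4.77% of all genes, and 1 at least 2-fold lower (Aldh1a2), against 4.99%. Aldh1a2 gave 4 UMIs there, 0.938 CPM against 17.6 in sham. The TAC-4w cells of this cluster were mostly those of the Gdf10-led finer cluster. There Aldh1a2 was at 9.0 CPM in sham, from 15 UMIs in 5 cells, and at 8.99 at TAC-6w, from 5 UMIs. It gave no UMI of 1202201 at TAC-2w and none of 3196422 at TAC-4w. In the finer fibroblast-like cluster led by Aox3 and Igfbp3 the TAC-4w ratio was 0.303 [0.121 to 0.630], from 7 UMIs in 92 cells. Of all genes in that finer cluster, 4.3% were at least 2-fold lower and 2.74% higher. At TAC-6w Rarb in cluster 1 was 2.05 [1.46 to 2.83] times sham, against 1.54% of all genes at least 2-fold higher and 5.35% lower. No member passed 2-fold in this cluster at TAC-2w, against 0.159% higher and 0.335% lower.

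In fibroblast-like cluster 0, Crabp2 was 0.461 [0.253 to 0.804] times sham at TAC-2w, against 0.428% of all genes at least 2-fold lower and 0.277% higher, and 4.27 [3.06 to 6.04] times sham at TAC-6w, against 2.77% at least 2-fold higher. The Crabp2 UMIs of cluster 0 lay in 23, 12 and 32 cells in sham, TAC-2w and TAC-6w. The top 5 cells held 60%, 61.1% and 48.1% of these UMIs. In the finer cluster with Thbs4, Cst6 and Postn the Crabp2 ratio at TAC-6w was 1.42 [0.999 to 2.04]. Rbp4 was 0.359 [0.286 to 0.446] times sham at TAC-6w, against 3.4% lower. In the finer cluster led by Ret and Cxcl14 that ratio was 0.625 [0.469 to 0.822], within 2-fold, and in the finer cluster with Thbs4, Cst6 and Postn it was 0.263 [0.171 to 0.398]. At TAC-4w Rarb was 2.86 [1.82 to 4.35] times sham, from 26 UMIs in 89 cells, against 3.24% higher and 4.07% lower. It was also higher than sham at TAC-4w in the finer clusters led by Aox3 and by Ret, but not in the Gdf10-led one. Aldh1a1 stayed within 2-fold in both clusters, with ratios of 1.53 and 1.46 at TAC-2w and 0.880 and 0.819 at TAC-6w in clusters 0 and 1.

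The wider retinoid list held 47 genes. In the sections 29, 30 and 30 of them had enough UMIs at the 3 times, and their median ratio to sham was 0.890, 1.11 and 1.12, beside 1.03, 1.16 and 1.24 for all genes. Beside the members, 2 of the 30 were at least 2-fold higher at TAC-4w, against 5.28% of all genes: Ttr, the plasma partner of the Rbp4 protein, at 3.63 against 0.654 CPM in sham, and Lipe, a lipase, at 52.9 against 25.6. In the libraries Ttr gave 2, 4, 0 and 0 UMIs in time order, too few to name a source cell. In the TAC-6w section Fabp5, a carrier that can bind retinoic acid, was at 139 against 50.5, 1 of 30 beside 4.66% of all genes. The shares of list genes at least 2-fold higher are thus near the background. Members included, 1 of 29, 2 of 30 and 1 of 30 list genes were at least 2-fold lower, against 0.587%, 0.776% and 0.251% of all genes. Cyp26b1, whose level chose the set, is among them each time. No list gene other than Cyp26b1 and Rarb was at least 2-fold lower at any time.

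At the edge, Rarres2, a gene first found as a retinoid-responsive one, was 2.43 and 2.42 times its interior level at TAC-4w and TAC-6w, and Adh1, an alcohol dehydrogenase that can oxidise retinol, 2.09 times at TAC-6w. Members included, 2 of 30 and 2 of 28 list genes were at least 2-fold higher there at these times, against 0.852% and 1.27% of all genes. In fibroblast-like cluster 0, members included, 0 of 27, 3 of 27 and 4 of 28 list genes were at least 2-fold higher at the 3 times. The shares of all genes were 0.277%, 3.24% and 2.77%. Lower were 1, 2 and 3, against 0.428%, 4.07% and 3.4%. In cluster 1 it was 0 of 30, 4 of 29 and 3 of 28 higher, against 0.159%, 4.77% and 1.54%. Lower were 0, 2 and 0, against 0.335%, 4.99% and 5.35%. In endothelial-like cluster 4 it was 0 of 16, 1 of 19 and 1 of 14 higher, against 0.825%, 1.93% and 1.88%. Lower were 2, 2 and 0, against 0.917%, 1.94% and 6.33%. In cluster 1, Nr2f2 and Hoxa5, known targets of retinoic acid, were at 256 and 17.6 CPM at TAC-4w against 44.8 and 1.38 in sham, the receptor Rarg at 92.2 against 43.7 and Fabp5 at 17.4 against 62.2. The part in this of the shift of cluster 1 to Gdf10-led cells at TAC-4w was not tested. At TAC-6w Lrat, which esterifies retinol for storage, was at 11.2 there against 3.17. In cluster 0 the retinal dehydrogenase Aldh1a3 was at 39.9 at TAC-4w and 6.13 at TAC-6w against 12.3 in sham, and Adh1 at 3.76 at TAC-4w against 10.1. The retinol dehydrogenase Rdh10 was at 17.4 there at TAC-6w against 40.7, and Cd38 at 3.37 against 1.2. In endothelial-like cluster 4 the receptor Rxra was at 22.1 at TAC-2w against 45.4, and Adh1 at 21.1 at TAC-4w against 50.5. Dhrs3, which reduces retinal back to retinol, was at 89.2 in cluster 0 and 204 in cluster 1 at TAC-6w, against 25.8 and 71.9 in sham, and at 60.9 in cluster 0 at TAC-4w.

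The genes most like each member were found by Pearson's correlation of log2(CPM + 1) over 53 sums of a cluster at resolution 0.25 and library, of which those from 1 library share its depth. For Cyp26b1 they were Eps8l2, Nav3 and Lhx6, with r of 0.843, 0.841 and 0.835. Rbp4 was most like Fst, Gabra3 and Sfrp2 (0.928, 0.927 and 0.923), and Aldh1a1 like Pamr1, Sox9 and Col12a1 (0.877, 0.874 and 0.866). For Aldh1a2 they were Ifi205, Sct and Enox1 (0.845, 0.821 and 0.821), for Rarb Ube2e2, Ddr1 and Anpep (0.878, 0.875 and 0.872), and for Crabp2 Fgf21 and Tcf24 (0.746 and 0.745). Stra6, with 148 UMIs, was not ranked. This likeness did not always hold in the finer clusters of resolution 0.5. There Eps8l2 was among the leading genes of an endothelial-like cluster with Gja5 and Sema3g. At TAC-4w Cyp26b1 was at 5.24 CPM in that cluster, against 195 in the Aqp1-led one. Fgf21 was among the leading genes of the finer Gdf10-led cluster, where Crabp2 gave 5 UMIs in sham and none in the TAC libraries. Over spots the correlations were weak, with a mean over the 4 sections of 0.0721 for Cyp26b1 with Fabp4 and of 0.145 for Aldh1a1 with Mgp, the highest for each.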

How the data were processed

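The authors aligned the reads to mouse build mm10 and deposited unnormalized UMI counts per gene for each spot over tissue and each called cell barcode, made with Cell Ranger 6.0.0 and Space Ranger 1.2.0 per the file headers. The submitters' notes give 7.0.0 and 1.3.1. The labels describe nuclei and the methods dissociated cells. The 7 genes, the gene lists and the contrasts were chosen with earlier results of these data known.

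Levels were summed counts scaled to 1000000 UMIs (CPM), with exact Poisson intervals for levels, exact conditional binomial intervals for ratios and, for a count of 0, a limit of 3 counts of the total. Intervals cover counting error only. A ratio of at least 2 or at most 0.5 was counted where either sum had 50 UMIs. With 1 section and 1 library per condition there was no test. Spots were not filtered. Of the edge spots, 2 at TAC-2w and 1 at TAC-4w had no neighbour over tissue. A cell barcode needed 500 to 30000 UMIs from 200 to 6000 genes, with a mitochondrial share under 15%. Doublets were scored with Scrublet (scanpy 1.11.5) and the highest 3.2% of each library removed, leaving 5399 to 7965 cells. Clustering used Seurat 5.3.0 under R 4.3.3, with 3000 variable genes and no retinoid gene, 30 components and a resolution of 0.25. Clusters were named from 6 markers per cell type, with at least 3 detected. All members were named, further genes of the 47-gene list where at least 2-fold apart with 50 UMIs, and the 3 genes most like each member. Results for 2 genes that these rules name are not reported here. All else ran on pandas 2.3.3, numpy 2.4.6 and scipy 1.17.1 under Python 3.11.15. The scripts for ratios and edges were tested on simulated counts with 200 changed genes. Alternatives were the scaling, the filters, the clustering, the cell naming, the edge width, the UMI minimum and depth.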

Additional observations from a re-analysis of the deposited data

Results flagged for a closer look

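The direction of Cyp26b1 against sham was opposite in the sections and in the endothelial-like cells of the libraries. At TAC-4w its ratio to sham was 0.158 in the section and 4.05 in endothelial-like cluster 4 of the library, and at TAC-6w it was 0.0302 and 12.5. By the labels the sham section shared its batch with TAC-2w and the sham library with TAC-6w, and the difference between the 2 kinds of data was not tested. With 1 section and 1 library per condition, nothing in these values can show whether a sample carries the wrong condition label. Rarb at TAC-4w also differed in direction between the section and some fibroblast-like clusters. Its ratio was 0.497 in the section and 2.86 in fibroblast-like cluster 0, which held 89 cells there. In the finer clusters led by Aox3 and by Ret, Rarb was at 22.7 and 25.5 CPM, against 7.22 and 6.94 in sham. These TAC-4w levels come from 28 and 22 UMIs in 92 and 59 cells. In the finer Gdf10-led cluster Rarb was at 0.626 against 3.00, and in cluster 1 as a whole it was close to sham. Over the whole library it was lower than sham, as in the section, at 2.30 CPM against 4.85. That library held far fewer fibroblast-like cells, with 89 in cluster 0 against 2085 in sham. The difference between the section and cluster 0 was not tested either.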

How the results depend on the processing

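Of 340 alternative values, 277 stayed within the counting error or 1.5 times of those reported, 62 went further and 1 turned direction. That 1 came from an alternative chosen after seeing the data, the resolution-0.5 cluster with the highest sham level in place of the class of cells, where Rbp4 at TAC-4w was 0.833 times sham in place of 4.53, and Cyp26b1 at TAC-4w and TAC-6w was 4.79 and 14 in place of 9.54 and 26.3. Without mitochondrial and ribosomal-RNA-like features the Cyp26b1 section ratio at TAC-2w was 0.197 in place of 0.231, and 2 members in place of 1 were past 2-fold at TAC-2w, Aldh1a2 being the second. With the mean of per-spot levels, and with spots of 10000 to 30000 UMIs, the count was 1 in place of 2 at TAC-4w, where Rarb dropped out, and 2 in place of 1 at TAC-6w, where Aldh1a2 came in. For edge against interior, taking the first 2 rings as the edge gave 0 in place of 1 in sham and at TAC-4w, where Aldh1a2 had a ratio of 2.42 but under 50 UMIs in either sum. The mean of per-spot levels gave 0 in sham and 1 in place of 0 at TAC-6w, omission of mitochondrial features gave 2 at TAC-4w, and spots of 10000 to 30000 UMIs gave 2 at TAC-6w. In the main clustering 3 members, Rbp4, Crabp2 and Cyp26b1, were highest in 1 class of cells in every library with at least 10 UMIs. With cells named by a marker score the number was 0, also without filters on cells, and at resolution 0.5 it was 1. Rbp4 was highest in fibroblast-like cells in 4 libraries in the main clustering. It was so in 0 at resolution 0.5, in 1 with the marker score and in 0 without filters. For both endothelial-like clusters as 1 class, of which cluster 14 was mostly in sham and TAC-2w, Cyp26b1 at TAC-6w was 26.3 times sham, and 18.1 with the marker score, 18.2 with the mean of per-cell levels and 16.3 after thinning to 1000 UMIs. The causes of these changes were not tested, other than the UMI minimum at the wider edge. No paired analysis was possible because each condition had 1 section and 1 library. For the same reason no replicate could be left out.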

Other observations

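Several genes of the wider retinoid list had sources of their own in the libraries, given here as the mean level over libraries with at least 50 cells of the cluster. Cyp26a1, the other well-known retinoic acid hydroxylase, was highest in the cluster led by Wif1, Chad and Coch, at 39.3 CPM with a range over libraries of 25.9 to 56.2. Rarg, a retinoic acid receptor, was also highest there, at 72.6. Rbp7, an intracellular retinol carrier, was highest in endothelial-like cluster 4, at 843, and Fabp5 in endothelial-like cluster 14, at 4487. Lrat, which esterifies retinol for storage, was highest in fibroblast-like cluster 1, at 5.6, and Rdh10, which oxidises retinol to retinal, in fibroblast-like cluster 0, at 28.5. Rxrg, a partner receptor, was highest in cardiomyocyte-like cells, at 44.7, and Dhrs3 in macrophage-like cells, at 213.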
